A study of Mus musculus with 11 samples.

Results

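Granzymes, their granule partners and the receptors first described on natural killer (NK) cells were followed in T cells from the inflamed colon. The members were the probes whose platform gene symbol was Gzma, Gzmb, Gzmk, Prf1, Nkg7, Cst7, Klrd1, Klrk1, Klrc1 or Klrb1c. Of these 10 genes, 9 had a probe, out of 19057 named genes on the array, with 13 of its 45281 probes. Gzma had no probe under that symbol, so its expression was not analysed here and only its promoter was read. The arrays were 5 from Il23r-/- and 6 from WT CD4 T cells, all C57BL/6 and sorted as T cell receptor β-positive, CD4-positive cells from the colon lamina propria, the layer of connective tissue under the gut epithelium. Both genotypes had been given together, as naive CD4 T cells, to Rag1-/- mice, which then developed colitis, and were told apart by congenic markers. Such hosts lack T and B cells of their own but keep NK cells, other innate lymphocytes and myeloid cells. The sources used here give neither the age of the mice nor whether each sample came from its own recipient. The p-values therefore cover only sample-to-sample spread, part or all of which may be technical.

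Granzymes are serine proteases stored in the granules of killer lymphocytes, and perforin makes the pores through which they enter a target cell. NK receptors of the killer cell lectin-like family either restrain or drive killing, and many of them read ligands related to the major histocompatibility complex on other cells. CD8 T cells and NK cells are the usual carriers of both, and CD4 T cells with such genes are found in inflamed tissue. Transcription factors of the Runx and T-box families are known regulators of this program.

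The promoters of 9 members were held in RefSeq (GRCm38.p6) as windows from 250 bases before to 50 bases after the start of the gene, with none for Klrd1. The letters TGTGGT, known as the core of the site that Runx factors bind, were searched on both strands and were found in 8 of the 9 windows and in 16.8% of all 32851 promoters in that table. The exception was Gzmk. The T-box letters GTGTGA, searched the same way, were found in the windows of Gzmb, Gzmk and Nkg7 and in 14.5% of all promoters. No match of one motif overlapped a match of the other. Counted from the start of the gene, the Runx letters began at -83 in Nkg7, -87 in Klrc1 and -89 in Klrb1c. They began at -50 in Gzma, -129 in Klrk1, -130 in Prf1 and -188 in Cst7. Gzmb had 2 matches, both marked in its window below. The 8 windows thus shared no common position of these letters. Such matches describe letters only. The 3 windows printed stand for a granzyme gene without measurable signal (Gzmb, at chr14:56262285-56262584, minus strand), a granule gene with a very bright probe (Nkg7, chr7:43436888-43437187, plus strand) and a receptor gene of the NK gene complex (Klrc1, chr6:129678924-129679223, minus strand). They run 5′ to 3′ along the gene's strand, and capitals mark TGTGGT or its reverse complement ACCACA.
Gzmb: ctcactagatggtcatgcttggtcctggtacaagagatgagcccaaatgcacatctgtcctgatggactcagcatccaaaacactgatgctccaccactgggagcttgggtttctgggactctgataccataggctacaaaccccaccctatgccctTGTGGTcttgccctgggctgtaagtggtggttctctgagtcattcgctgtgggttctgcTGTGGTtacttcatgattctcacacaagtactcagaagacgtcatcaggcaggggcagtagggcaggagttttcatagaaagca
Nkg7: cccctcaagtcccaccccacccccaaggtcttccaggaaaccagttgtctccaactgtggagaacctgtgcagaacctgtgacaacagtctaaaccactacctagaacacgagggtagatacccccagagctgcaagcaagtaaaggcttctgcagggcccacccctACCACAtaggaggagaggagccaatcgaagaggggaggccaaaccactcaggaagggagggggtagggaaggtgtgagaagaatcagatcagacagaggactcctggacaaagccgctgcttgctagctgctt
Klrc1: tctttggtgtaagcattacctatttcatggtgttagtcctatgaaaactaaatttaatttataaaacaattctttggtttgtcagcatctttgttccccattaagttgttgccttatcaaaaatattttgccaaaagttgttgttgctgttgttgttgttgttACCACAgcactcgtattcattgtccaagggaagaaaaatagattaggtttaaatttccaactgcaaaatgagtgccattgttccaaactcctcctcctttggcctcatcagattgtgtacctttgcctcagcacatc

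Each array had 17309 to 18440 probes above background, and array medians of raw intensity were 117.5 to 176.7 in Il23r-/- and 107.6 to 165.3 in WT. Precision is limited by how many arrays there were. The probe for Il23r, the deleted gene, was above background on 0 of the 5 Il23r-/- and 0 of the 6 WT arrays, with log2 intensities of 4.61 to 4.81 in Il23r-/- and 4.67 to 4.99 in WT arrays, so it does not check the genotype labels. T cell identity genes were present as labelled: Cd3e was at 14.03 to 14.37 in Il23r-/- and 14.05 to 14.36 in WT arrays by its brightest probe, and Cd4 at 9.08 to 9.68 in Il23r-/- and 9.46 to 9.73 in WT arrays. Of the 13 listed identity genes, 11 were tested, with 0 called and a median difference of -0.06.

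All levels here are log2 intensities after background correction and quantile normalization, and they compare arrays for 1 probe, not 1 gene with another. Differences are Il23r-/- minus WT from limma, and a probe was called at a Benjamini-Hochberg adjusted p under 0.05 over all 18003 tested probes. A probe was tested if it was above background (detection p under 0.05) on at least 5 of the 11 arrays. That left 11 of the 13 probes and 8 of the 10 members. The question put to these genes is whether the killer program of colonic CD4 T cells differs with the IL-23 receptor.

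Of the 11 tested probes 0 were called, where 1.78% of all tested probes were (210 higher and 110 lower in Il23r-/- cells, or 199 and 58 with the arrays scaled to equal medians). At an unadjusted p under 0.05, limma had 1 of the 11, that of Klrd1, and 17.6% of all tested probes. The genotypes overlapped for each of the 11 probes, while 3.21% of all tested probes did not overlap. Differences were above 0 for 8 probes and below 0 for 3, with a median of 0.19 against -0.01 over all tested probes. The tested probes of Klrk1 and Prf1, all above 0, enter this count more than once. By the brightest probe of each gene, the 1 tested granzyme, 2 of 3 granule partners and 2 of 4 receptors were above 0. In a bulk sample, fewer cells with a transcript and less transcript per cell cannot be told apart.

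**Figure D1:**
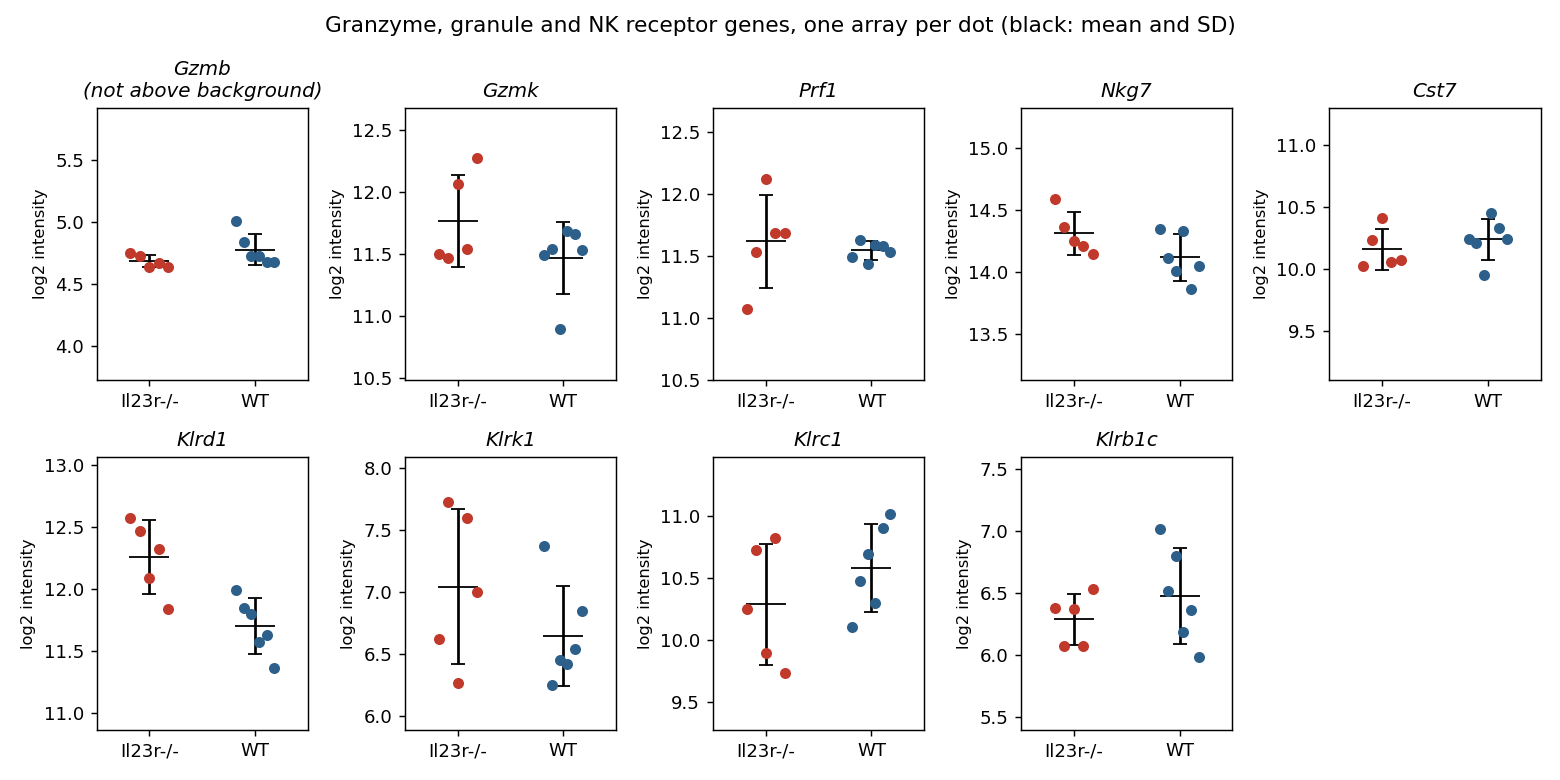
Log2 intensity of the brightest probe of each of the 9 measured genes, 1 dot per array, with Il23r-/- (5 arrays) left of WT (6 arrays) and the mean and SD in black; each panel spans 2.2 log2 units on its own level. The dots of the genotypes overlap in every panel, with Klrd1 the farthest apart (4 of 5 Il23r-/- arrays above all WT arrays), and Gzmb lies at the background.

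Among the granzymes, Gzmb, the protease of classical killer cells that cuts after aspartate, gave no signal above background, while Gzmk, a protease with trypsin-like specificity, was plainly present. The Gzmb probe was above background on 0 of 5 Il23r-/- arrays and on 0 of 6 WT arrays. Its raw intensity was 78.8 to 140.3 in Il23r-/- and 78.4 to 151.4 in WT arrays, and its log2 level 4.64 to 4.75 in Il23r-/- and 4.68 to 5.01 in WT arrays. These values are no more than a bound and give no fold. With a single probe for the gene, a failed probe and an absent transcript cannot be told apart.

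Gzmk was above background on all 11 arrays. It stood at 11.50, 11.47, 12.06, 11.54 and 12.27 in Il23r-/- cells, against a lowest, median and highest level of 10.89, 11.54 and 11.68 in WT cells. Il23r-/- samples 3 and 5 lay above every WT sample, the other Il23r-/- samples lay within the WT range, and WT sample 3 lay apart at the low end. The means were 11.77 ± 0.37 in Il23r-/- (SD, n = 5) and 11.47 ± 0.29 in WT cells (SD, n = 6), a difference of 0.30 ± 0.17 (SE, limma adjusted p = 0.385). The 95% interval of the difference was -0.07 to 0.68, and it was 0.19 without WT sample 3 and 0.18 without Il23r-/- sample 5.

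Prf1 encodes perforin, and its probes were above background on all 11 arrays. By its brighter probe it stood at 11.07, 11.53, 12.12, 11.68 and 11.68 in Il23r-/- cells, against 11.43, 11.56 and 11.63 as the lowest, median and highest level in WT cells. The Il23r-/- samples reached both below and above the narrow WT range: their SD was 0.38, that of the WT samples 0.07. The difference was 0.07 ± 0.14 (limma adjusted p = 0.832), and its sign turned to -0.05 without Il23r-/- sample 3. The dimmer probe stood at 8.15, 8.94, 9.15, 8.68 and 8.89 in Il23r-/- cells, against 7.89, 8.45 and 8.90 in WT cells, with a difference of 0.33 ± 0.19 (adjusted p = 0.377). On both probes Il23r-/- sample 1 was the lowest and sample 3 the highest of its genotype, while in WT sample 1 the dimmer probe was at its highest, at 8.90, and the brighter one below the median.

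Nkg7 is a protein of the granule membrane that takes part in granule release. It stood at 14.59, 14.37, 14.25, 14.21 and 14.15 in Il23r-/- cells, against 13.87, 14.09 and 14.35 in WT cells. Il23r-/- samples 1 and 2 lay above every WT sample, and all 5 above the WT mean. The means were 14.32 ± 0.17 in Il23r-/- (SD, n = 5) and 14.12 ± 0.19 in WT cells (SD, n = 6), and the difference was 0.19 ± 0.11 (95% interval -0.04 to 0.43, limma adjusted p = 0.379).

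Cst7 encodes cystatin F, an inhibitor of the cathepsins that activate granzymes within the granule. It stood at 10.02, 10.23, 10.41, 10.05 and 10.07 in Il23r-/- cells, against 9.95, 10.24 and 10.45 in WT cells, so that every Il23r-/- sample lay inside the WT range. The difference was -0.08 ± 0.10, and its 95% interval of -0.30 to 0.14 bounds a change in either direction (limma adjusted p = 0.726).

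Of the receptors, Klrd1 had the greatest distance between genotypes among the 11 probes. Its product CD94 has no signalling tail of its own and pairs with NKG2 chains. Klrd1 stood at 12.57, 12.47, 12.09, 12.32 and 11.84 in Il23r-/- cells, against 11.36, 11.71 and 11.99 in WT cells. Il23r-/- samples 1 to 4 lay above every WT sample, and sample 5 lay within the WT range. The means were 12.26 ± 0.30 in Il23r-/- (SD, n = 5) and 11.70 ± 0.23 in WT cells (SD, n = 6), a 1.47-fold ratio and a difference of 0.56 ± 0.14 (95% interval 0.25 to 0.87), which missed the threshold (limma adjusted p = 0.0718). Over the alternatives tried, its adjusted p ran from 0.0178 to 0.203. It passed without background correction (0.54, adjusted p = 0.0395), with a trended and robust variance model (0.56, adjusted p = 0.0383), with array brightness as a covariate (0.47, adjusted p = 0.0178) and without Il23r-/- sample 5 (0.66, adjusted p = 0.0375). That covariate was added after seeing the data. Klrd1 missed in 10 of 11 fits with 1 array left out and in 8 of 11 others. These included equal medians (0.57, adjusted p = 0.203) and no detection filter (0.56, adjusted p = 0.131).

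Klrd1 levels also moved with the brightness of the array. The arrays fell into 2 clusters by their median raw intensity, 4 at 156.7 to 176.7 (samples 1 and 2 of each genotype) and 7 at 107.6 to 131.7. Klrd1 averaged 12.52 in Il23r-/- and 11.92 in WT cells on the 4 brighter arrays, a difference of 0.60, and 12.08 in Il23r-/- and 11.59 in WT cells on the 7 dimmer ones, a difference of 0.49. Both genotypes were higher on the brighter arrays. The brighter cluster holds 2 Il23r-/- and 2 WT arrays and the dimmer 3 Il23r-/- and 4 WT arrays, and the differences within clusters were not tested. Nkg7 likewise averaged 14.48 in Il23r-/- and 14.24 in WT cells on the brighter arrays, and 14.21 in Il23r-/- and 14.07 in WT cells on the dimmer ones. Gzmk, Prf1 and Klrc1 changed sign between the clusters, with differences of -0.03 (Gzmk), -0.26 (Prf1) and 0.20 (Klrc1) on the brighter and 0.51 (Gzmk), 0.29 (Prf1) and -0.57 (Klrc1) on the dimmer arrays. Within the 7 dimmer arrays, centred by genotype, none of the 8 tested members was related to brightness at a Benjamini-Hochberg adjusted exact permutation p under 0.05. Exact here means that all orders of the 7 arrays were counted. As the values were first centred by genotype, these p-values are approximate. The nearest was Nkg7, with Pearson r = 0.72 (exact permutation p = 0.0435, adjusted p = 0.348), Spearman rho = 0.68 (exact p = 0.11, adjusted p = 0.876) and r = 0.06 without the 2 arrays of most extreme brightness. For Klrd1 r was 0.59 (exact p = 0.18, adjusted p = 0.686), rho 0.29 (exact p = 0.556, adjusted p = 0.894) and r 0.98 without those 2 arrays. For Gzmk r was -0.52 (exact p = 0.257, adjusted p = 0.686), rho -0.21 (exact p = 0.662, adjusted p = 0.894) and r -0.90 without them, so that for these 3 genes r rests on which arrays are kept.

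**Figure D2:**
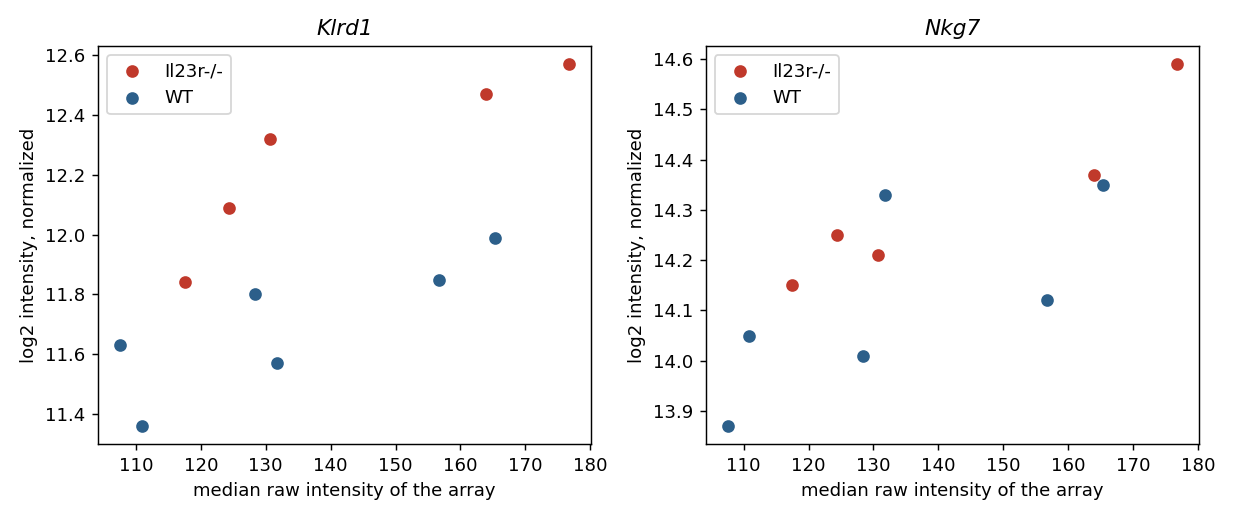
Normalized log2 intensity (vertical axis) of Klrd1 and Nkg7 against the median raw intensity of the array (horizontal axis, linear scale), 1 dot per array, in Il23r-/- (red) and WT (blue) samples. For Klrd1 the Il23r-/- mean lies above the WT mean both on the 4 arrays at 156.7 or more (12.52 in Il23r-/- and 11.92 in WT) and on the 7 arrays at 131.7 or less (12.08 in Il23r-/- and 11.59 in WT).

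Klrc1 encodes NKG2A, the inhibitory partner of CD94, and had the opposite sign. It stood at 10.25, 10.73, 9.90, 10.83 and 9.74 in Il23r-/- cells, against 10.11, 10.59 and 11.02 in WT cells. Il23r-/- samples 3 and 5 lay below every WT sample and the other 3 within the WT range. The means were 10.29 ± 0.49 in Il23r-/- (SD, n = 5) and 10.59 ± 0.35 in WT cells (SD, n = 6), with a difference of -0.29 ± 0.22 (95% interval -0.76 to 0.17, limma adjusted p = 0.499), and -0.16 without Il23r-/- sample 5. The chains Klrc2 and Klrc3, which also pair with CD94, had 1 probe each. Neither was above background on any of the 11 arrays.

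Klrk1 encodes NKG2D, an activating receptor for stress ligands, and had 4 probes. Its brightest probe stood at 6.62, 7.73, 6.27, 7.60 and 7.00 in Il23r-/- cells, against 6.25, 6.49 and 7.37 in WT cells, a difference of 0.40 ± 0.26 (limma adjusted p = 0.45). The 2 next probes were at 0.19 ± 0.23 (adjusted p = 0.699) and 0.35 ± 0.19 (adjusted p = 0.355), and the dimmest was above background on no array. With 1 array left out the 3 differences ran from 0.23 to 0.59, 0.05 to 0.42 and 0.23 to 0.50, the lowest without Il23r-/- sample 2 or, for the third probe, sample 4. On the authors' values they were 0.21, 0.07 and 0.12. On all 3 tested probes Il23r-/- samples 2, 4 and 5 were higher than samples 1 and 3. The Il23r-/- samples thus split among themselves, with an SD of 0.62 on the brightest probe and 0.62 and 0.49 on the others, against 0.41, 0.21 and 0.20 in WT samples. These probes share a target and count as 1 gene.

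**Figure D3:**
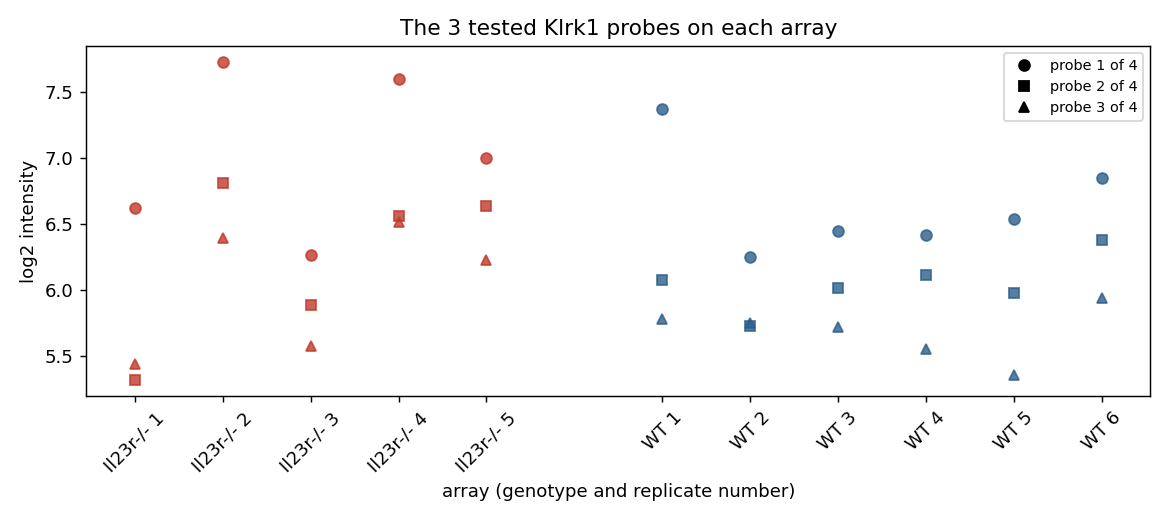
Log2 intensity of the 3 tested Klrk1 probes (circle, square and triangle, in order of brightness) on each array, Il23r-/- in red on the left and WT in blue on the right. On each probe Il23r-/- samples 2, 4 and 5 lie above samples 1 and 3 and the WT samples spread less. The brightest probe is also high in WT sample 1 (7.37), and the 2 dimmer ones were not above background on every array.

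Klrb1c encodes NK1.1, the marker of NK cells in this mouse strain. Its dim probe stood at 6.38, 6.07, 6.37, 6.07 and 6.53 in Il23r-/- cells, against 5.98, 6.44 and 7.01 in WT cells. Every Il23r-/- sample lay inside the WT range, and the difference was -0.19 ± 0.17 (95% interval -0.55 to 0.17, limma adjusted p = 0.589). The probe was above background on all 11 arrays.

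**Figure D4:**
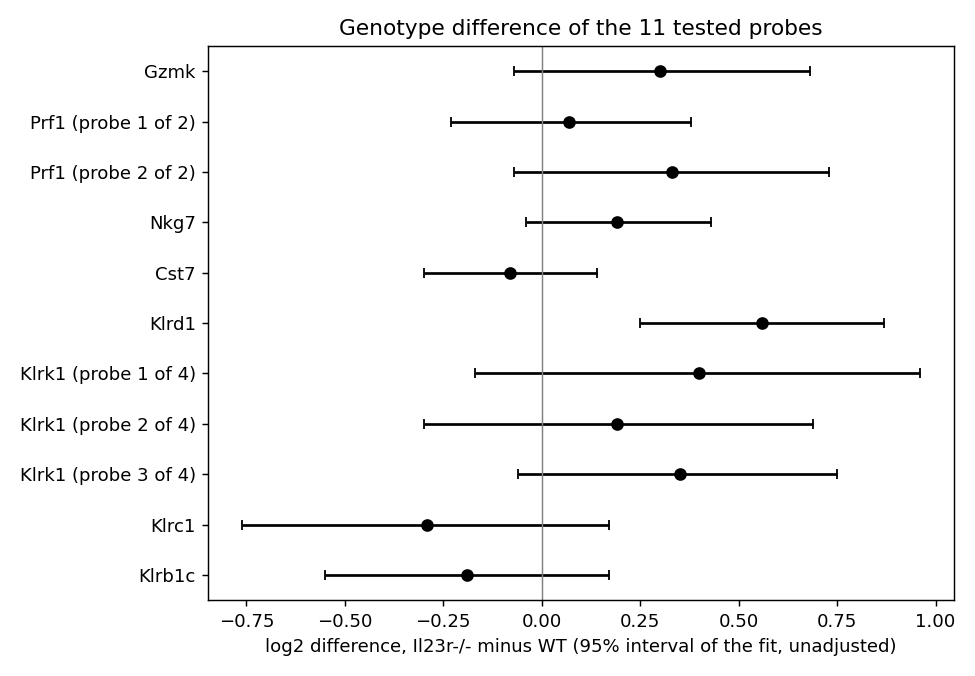
Difference in log2 intensity, Il23r-/- minus WT, of the 11 tested probes (points) with the 95% interval of the fit, not adjusted for the number of probes (lines). The interval of Klrd1, 0.25 to 0.87, is the one that does not include 0.

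No relation between members across arrays passed its test. Among the 28 pairs of the 8 tested genes (brightest probe each, genotype-centred values, 11 arrays), 0 passed at a Benjamini-Hochberg adjusted permutation p under 0.05. In Il23r-/- cells, sample 5 held the highest Gzmk and the lowest Klrd1 and Klrc1, while sample 1 held the highest Nkg7 and Klrd1 and the lowest Prf1 and Cst7. In WT cells, sample 3 held the lowest Gzmk, Prf1 and Cst7. Over the same 11 arrays, the named genes with values most like Nkg7 were Ubtf (r = 0.96), Synrg (0.95) and Arpc5 (0.94), and those most like Klrd1 were Entpd5 (0.98), Krtcap2 (0.96) and Npm1 (0.96). They were picked as the highest of all tested probes and none was called between genotypes, the 11 points share the array brightness described above, and these r are a description without a test.

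Around the members, 96 genes in 7 lists of the killer pathway were examined, of which 63 were tested by their brightest probe. In Il23r-/- cells 1 rose, Klre1, and 2 fell, Serpinb6b and Igf2r, and the median over these genes was -0.05. Background shares were 1.17% of all tested probes called higher and 0.611% called lower.

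Klre1, an NK receptor chain known in mouse and rat to pair with chains of the Klri family, stood at 7.36, 8.04, 7.30, 6.62 and 7.55 in Il23r-/- cells, against 5.53, 6.20 and 6.83 in WT cells. Of the Il23r-/- samples, 4 lay above all WT samples and sample 4 lay within their range. Klre1 rose by 1.25 ± 0.25 on the log2 scale (limma adjusted p = 0.0231), with its dim probe above background on 5 of 5 Il23r-/- and 4 of 6 WT arrays. Leaving out WT sample 3 or 5, or Il23r-/- sample 2, 3 or 5, ended the call (adjusted p up to 0.0587). Klre1 also missed in 2 of the 10 other alternatives, including that without the detection filter (adjusted p = 0.0592). Its adjusted p ran from 0.00234 to 0.074 over all alternatives. On the authors' values the difference was 0.63 and without background correction 0.60, both called. In the order of genes in RefSeq (GRCm38.p6), Klrd1 lies between Klre1 and Klrk1 within the NK gene complex on chromosome 6. Gabarapl1, the next gene past Klre1, was at -0.14 (adjusted p = 0.393), and Klri1, on the far side of Klrc1, at 0.23 (adjusted p = 0.358).

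Serpinb6b, a clade B serpin from a family that inhibits intracellular serine proteases, stood at 12.36, 12.64, 12.61, 12.62 and 12.69 in Il23r-/- cells, against 12.81, 12.98 and 13.10 in WT cells. The genotypes did not overlap, and it fell by 0.38 on the log2 scale (SE 0.08, limma adjusted p = 0.0388). Igf2r, a mannose 6-phosphate receptor that sorts granule enzymes, stood at 9.82, 9.72, 9.63, 9.57 and 9.84 in Il23r-/- cells, against 9.93, 10.12 and 10.35 in WT cells. Its groups did not overlap either, and it fell by 0.41 (SE 0.09, limma adjusted p = 0.0402), while its other probe was at -0.22 (adjusted p = 0.268). Apart from fits with 1 array left out, Serpinb6b missed in 3 of 11 alternatives and Igf2r in 4 of 11. Among these, both calls were lost with equal medians (adjusted p = 0.163 for Serpinb6b and 0.293 for Igf2r), and that of Igf2r also without the detection filter (adjusted p = 0.0539). With 1 array left out, each also missed in 9 of 11 cases, all but those without WT sample 2 or 3 for Serpinb6b (adjusted p up to 0.084) and without WT sample 2 or 4 for Igf2r (up to 0.108).

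**Figure D5:**
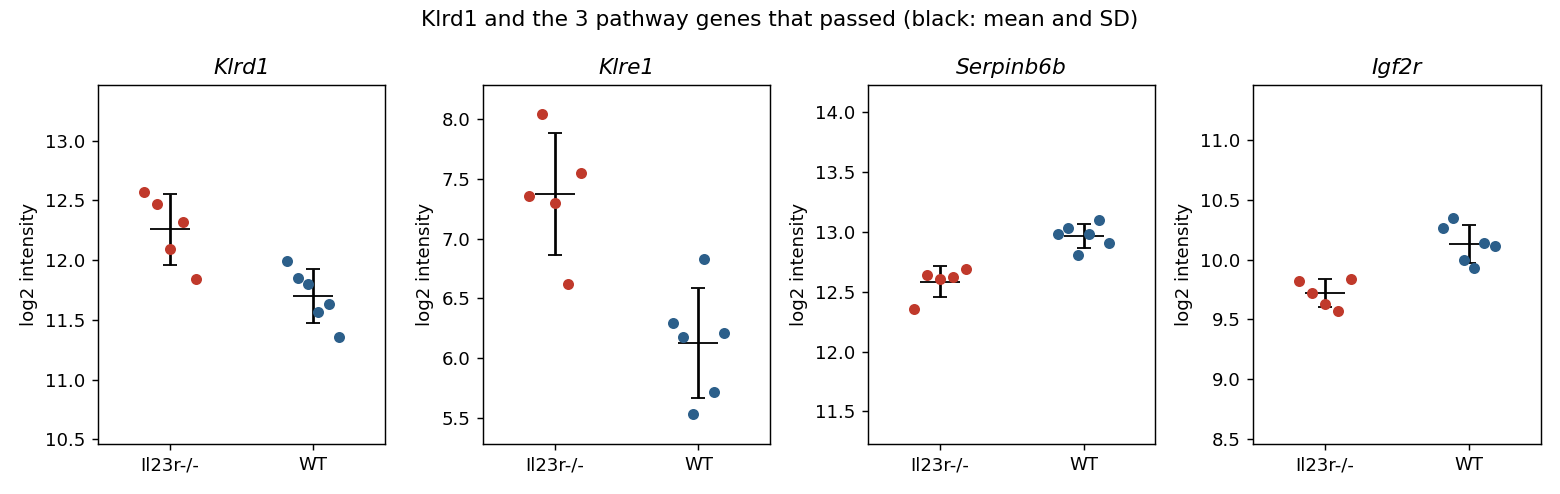
Log2 intensity of Klrd1, Klre1, Serpinb6b and Igf2r, 1 dot per array, Il23r-/- left of WT, with the mean and SD in black; each panel spans 3 log2 units. The Il23r-/- means of Klrd1 and Klre1 lie above, and those of Serpinb6b and Igf2r below, the WT means, and the dots overlap for Klrd1 and Klre1.

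Of the 7 other granzymes, 5 (Gzmc, Gzme, Gzmf, Gzmg and Gzmn) were above background on no array. Gzmm was above background on 5 of 5 Il23r-/- and 6 of 6 WT arrays, at 8.39 in Il23r-/- and 8.51 in WT cells, and Gzmd on 5 of 5 Il23r-/- and 5 of 6 WT arrays by its brighter probe. Their differences were -0.12 (Gzmm) and -0.15 (Gzmd), neither called, and probes of the closely related Gzmc to Gzmg cluster may take up each other's transcripts. Of the 16 genes for granule processing and release, 14 were tested. Igf2r was the single call, the median was -0.03, and the release factor Stxbp2 was at 0.12 and the sorting adaptor Ap3b1 at -0.12. M6pr, another mannose 6-phosphate receptor gene, was at 0.10 by its brightest probe (limma adjusted p = 0.511). Its other tested probe was at -0.17 (adjusted p = 0.421). Among inhibitors (3 tested, median -0.18), Cst3 was at -0.18 and Serpinb6a at -0.12, and the Gzmb inhibitor gene Serpinb9 was above background on no array.

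Death ligands and receptors (6 tested, 0 called, median 0.05) included the TRAIL receptor gene Tnfrsf10b, whose probes disagreed. Its brightest probe was at -0.43 (limma adjusted p = 0.198), a dimmer one rose by 0.55 (adjusted p = 0.0158) and a further one was at 0.57 (adjusted p = 0.0622). Fas was at 0.27 by its brightest probe and at 0.05, 0.13 and -0.23 by its others, all uncalled. Lta was at 0.17, uncalled, and Fasl, the ligand of Fas, was at -0.05 (adjusted p = 0.845). Of 25 other NK receptors and adaptors 15 were tested (median 0.11, 1 called). Hcst, the signalling adaptor of NKG2D, was at -0.04 (adjusted p = 0.86), the inhibitory receptor gene Tigit at -0.28 and Klra9 at -0.49, uncalled. The dim Klra9 probe was above background on 2 of 5 Il23r-/- and 4 of 6 WT arrays.

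Ligands of these receptors, which T cells can also carry, gave 0 calls among 5 tested genes (median -0.02). H2-T23, which encodes the ligand of CD94 and NKG2A, was at 14.09 ± 0.11 (SD, n = 5) in Il23r-/- and 14.11 ± 0.14 (SD, n = 6) in WT cells (limma adjusted p = 0.925). Clec2d was at -0.41 (adjusted p = 0.131), the NKG2D ligand gene Ulbp1 at -0.39 and Clec2e at 0.18. The dim Ulbp1 probe was above background on 2 of 5 Il23r-/- and 5 of 6 WT arrays. That of Clec2e was above it on 5 of 5 Il23r-/- and 3 of 6 WT arrays. Among regulators of the program (18 tested, 0 called, median -0.07), the IL-18 receptor gene Il18r1 was at 0.29, Ifng at 0.29 and Il12rb2 at -0.38. Of the listed factors of the Runx and T-box families, Runx1 was at -0.23 on both of its tested probes (limma adjusted p = 0.237 and 0.283), Tbx21 at -0.04, Runx3 at -0.08 and Eomes at -0.10, all uncalled. The second Eomes probe was at 0.44 (adjusted p = 0.457).

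Markers of other cells that carry NK receptors or granules were read beside these values. Of 10 NK and innate lymphoid markers, 6 were tested, and Klre1 was the single call (median 0.34). The NK marker Ncr1 was above background on none of the 11 arrays, nor were Klra1, Klra4 and Klra8. Outside this list, Klra3 (brighter probe) and Klra10 were above background on 5 of 5 Il23r-/- and 6 of 6 WT arrays. They were at -0.41 (Klra3, limma adjusted p = 0.443) and -0.45 (Klra10, adjusted p = 0.298). Of the tested markers, Fcer1g was at 0.51 (adjusted p = 0.438), above background on 5 of 5 Il23r-/- and 6 of 6 WT arrays. Tyrobp was at 0.18 (adjusted p = 0.719), above background on 5 of 5 Il23r-/- and 3 of 6 WT arrays. The summed linear intensity of the tested markers ran from 19329 to 26190 in Il23r-/- and from 18823 to 25489 in WT arrays. Most of this sum was Il7r, at 14.25 in Il23r-/- and 14.12 in WT cells on the log2 scale. As T cells also express Il7r, the sum does not measure the share of NK or innate lymphoid cells. The 3 markers at the highest level differed by 0.12 (Il7r), -0.10 (Eomes) and 0.56 (Kit, adjusted p = 0.228). The part of such cells in the values of Klrd1 and Klre1 was not tested.

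Of 8 CD8 and γδ T cell markers, 3 had a probe (Cd8a, Cd8b1 and Sox13), and the listed γδ T cell receptor genes had none under their symbols. Cd8a and Sox13 were above background on no array. Cd8b1, the single tested gene, was above background on 5 of 5 Il23r-/- and 6 of 6 WT arrays, at 10.36 in Il23r-/- and 10.54 in WT cells. Its difference was -0.18 (adjusted p = 0.381), with its other tested probe at 0.52 (adjusted p = 0.192). Its linear intensity ran from 1221 to 1469 in Il23r-/- and from 1236 to 1670 in WT arrays. Of 10 mast cell and basophil markers 8 were above background on no array, and Kit alone was tested (sums of 798 to 1525 in Il23r-/- and 471 to 1121 in WT arrays). Myeloid markers (10 of 16 tested, 0 called, median 0.28) had sums of 6425 to 9102 in Il23r-/- and 3962 to 12890 in WT arrays, and the 3 at the highest level differed by 0.44 (Lyz1), 0.23 (Cd74) and 0.29 (H2-Aa). The neutrophil and monocyte genes S100a8 and S100a9 had the opposite sign, at -0.79 (adjusted p = 0.357) and -0.63 (adjusted p = 0.401). Epithelial and stromal markers (4 of 9 tested, 0 called, median -0.06) summed to 1182 to 1402 in Il23r-/- and 938 to 1542 in WT arrays, with Cdh1, which some T cells also express, at 0.82 (limma adjusted p = 0.071, and 0.0216 to 0.152 over the alternatives), Pecam1 at -0.13 and Krt8 at -0.21. The tested B cell marker Cd79b was at 0.06, with levels of 51 to 70 in Il23r-/- and 49 to 74 in WT arrays.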

How the data were processed

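Bead arrays of 11 samples were analysed. The deposited table gives, per probe and array, a linear intensity without normalization and a detection score. The authors used GenomeStudio 1.6.0, per the submitters' processing notes. The score column is headed as a p-value in the deposited file but rises with intensity (rank correlation at least 0.984 on every array), so 1 minus the score was taken as the detection p. The authors' log2 values equal log2 intensity minus the array's 75th percentile, to within 0.000339, and served as an alternative and to attach probe names.

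Intensities were background-corrected (normexp with control levels inferred from detection, offset 16), quantile-normalized and tested with limma 3.58.1 in R 4.3.3, genotype only, with Benjamini-Hochberg adjustment over all probes with detection p under 0.05 on at least 5 arrays. The fit was tested on simulated data. A gene was represented by its brightest tested probe. Of 45281 probes, 34885 had 1 symbol, 18 had several and 10378 were not listed in the annotation used.

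The members and lists were chosen with earlier results of these data known. Named were all members, in each pathway list up to 3 genes with the smallest p and any call, and in each list of other cells' markers the 3 at the highest level and any call. Further list genes (Hcst, H2-T23, Fasl, Tbx21, Runx1, Runx3, Serpinb9, M6pr, S100a8, S100a9, Fcer1g, Tyrobp, Klra3, Klra10) were named for their role after their values were seen. No source used here gives slides or scan dates. The alternatives changed background correction, normalization, detection filter, variance model, array weights, replicate block and single arrays.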

Additional observations from a re-analysis of the deposited data

Results flagged for a closer look

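Of 84 sets of values, 1 for each genotype of 42 tested probes, 3 held a sample far from the others of its genotype by Dixon's test, and chance flags about 1 in 20. Serpinb6b was lowest in Il23r-/- sample 1, at 12.36 with the next at 12.61. Gzmk was lowest in WT sample 3, at 10.89 with the next at 11.49. Gzmd was lowest in WT sample 2, at 5.67 with the next at 6.22.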

How the results depend on the processing

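The number of probes called over the whole table was 320, against 210 without the detection filter, 512 with array brightness as a covariate, 649 at an adjusted p under 0.1, and 157 to 507 with 1 array left out (507 without WT sample 2, 160 without WT sample 3, 157 without WT sample 5, 185 without Il23r-/- sample 2, and 179 each without Il23r-/- samples 3 and 4). The covariate was added after seeing the data. Of the 11 member probes, 1 (Klrd1) was called without background correction, with the trended and robust variance, with the covariate and at an adjusted p under 0.1, and 0 to 1 with 1 array left out. The 7 pathway lists together held 3 calls, against 0 with the replicate block, 1 each with replicates 1 to 5 alone, equal medians and no detection filter, and 0 to 4 with 1 array left out. The cause of these shifts was not tested, except that the filter and the left-out arrays change how many probes or samples enter. With replicate number as a block, 264 probes were called over the table and 0 of the members, and Klrd1 was at 0.49 (limma adjusted p = 0.059), Klre1 at 1.26 (0.074), Serpinb6b at -0.40 (0.0672) and Igf2r at -0.42 (0.0531). Same-numbered samples correlated at -0.01 to 0.26 in their deviations from the genotype means. Of 5 Il23r-/- samples, 1 correlated best with its own number, so the main fit did not take the numbers as pairs. Pairing is not excluded by this, as samples 1 and 2 were the brighter arrays in both genotypes. Differences near 0 changed sign for Eomes (0.01 with the block, 0.01 with replicates 1 to 5 alone, 0.06 with the covariate, and -0.28 to 0.08 with 1 array left out), for Prf1 (-0.05 to 0.21 with 1 array left out) and for Cd79b (0.00 to 0.13 with 1 array left out). With 1 array left out Nkg7 ran from 0.12 to 0.24, Cst7 from -0.14 to -0.04, Klrb1c from -0.29 to -0.08 and the dimmer Prf1 probe from 0.22 to 0.48. Member probes other than the brighter one of Prf1 kept their sign under every alternative run, though not within both brightness clusters. Signal over background limits Gzmb and the dimmest Klrk1 probe, which gave no difference.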
